A study of Mus musculus with 6 samples.

Results

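Translation initiation factors (eIFs) and elongation factors (eEFs) were read in liver RNA sequencing of 6 mice. The set was every listed gene whose name starts with Eif or Eef followed by a digit, without the pseudogene names and without the sex-chromosome pair Eif2s3x and Eif2s3y. Of 54532 genes in the table, 78 carried such a name, and 67 were members after 9 pseudogene names and the pair had been left out. All mice were male C57BL/6J animals with insulin resistance (IR), produced by 6 weeks of high-fat diet (HFD) from 8 weeks of age. After fasting for 16 h, 3 mice received an intraperitoneal injection of insulin at 0.75 units per kg (IR insulin), and 3 received the BSA carrier (IR vehicle). Livers were collected 6 h after the injection, and each library held 1 liver. The comparison asks which transcripts respond to insulin in the resistant liver, and mice on a control diet were not analysed here.

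Initiation brings the small ribosomal subunit, the initiator tRNA and the capped mRNA together. The eIF2 complex delivers the tRNA, eIF2B recharges eIF2 with GTP, eIF4E, eIF4G and eIF4A bind and unwind the cap end, and eIF3 organizes the small subunit, after which eEF1A and eEF2 drive elongation. Insulin acts on this machinery mainly through phosphorylation: mTORC1 phosphorylates the 4E-BPs, which releases eIF4E, while eEF2 kinase inhibits eEF2 and the eIF2α kinases slow initiation under stress. A transcript count does not see these modifications.

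The libraries held 18449986 to 21827619 counts, and 13377 genes passed the filter on low counts. Levels are given as CPM, counts scaled to 1 common library size after TMM correction for library composition. The insulin libraries correlated with each other at 0.98 to 0.985 (Pearson's r over the log2 levels of genes, as a description) and the vehicle libraries at 0.878 to 0.948. IR vehicle 2 and IR vehicle 3 stood apart from the other 4, and values without 1 of them are given below for the estimates that it moved most. In IR vehicle 2, a gene's deviation (its level in log2 CPM less the median over the 5 remaining libraries) changed by −1.13 per 10 percentage points of transcript GC content, against −0.0637 to 0.188 elsewhere. All 8 hepatocyte markers listed were present, with summed levels of 74051 to 167760 CPM in vehicle and 61217 to 77365 CPM in insulin livers, highest in IR vehicle 2. Skeletal muscle markers summed to 0 to 0.0954 CPM in vehicle and 0 to 0.0461 CPM in insulin livers, and 4 of 6 were at 0 throughout. In whole liver, a smaller share of a cell type and less RNA per cell cannot be told apart.

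Of the 67 members, 63 passed the filter and 55 had at least 100 counts in every library. The 4 that did not pass were Eef1akmt3, a methyltransferase of eEF1A, with 50 counts over the 6 libraries, Eef1a2, the muscle and neuron form of eEF1A, with 1 count, and Eif4e1b and Eif2c5 with 0. For a gene at 0, 3 counts would have been 0.13 to 0.184 CPM, depending on the library. Eif2c5 belongs to the set by name alone, since Eif2c was an older name of the Argonaute genes. Together the members took 1.07 to 1.33% of all counts, lowest in IR vehicle 2 and highest in IR vehicle 3.

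Levels between genes were compared per kilobase (kb) of the longest annotated transcript. Eef1a1, which carries aminoacyl-tRNA to the ribosome, was highest, with a mean of 2194 CPM per kb (range over the 6 libraries 1944 to 3010). Eef2, the translocase, followed at 479 CPM per kb (328 to 667), and these ranges did not touch. Eif1, which guards start codon choice, came next at 298 CPM per kb (225 to 406), followed by Eif5a, the hypusine-bearing factor, at 239 (134 to 287) and Eif4a1, the main cap helicase, at 135 (125 to 145). The ranges of Eef2 and Eif1 overlapped, as did those of Eif1 and Eif5a and those of Eif5a and Eif4a1. Within each library, Eef2 still lay above Eif1. Eif5a lay above Eif1 in IR insulin 3, and Eif4a1 lay above Eif5a in IR vehicle 2. The lowest tested members were Eef2k, the eEF2 kinase, at 1.11 CPM per kb, Eif3j2 at 0.998 and Eif5a2 at 0.105. Levels of closely similar pairs such as Eif1a and Eif1ax, or Eif3j1 and Eif3j2, are uncertain, because the counting program could have divided their reads.

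**Figure D1:**
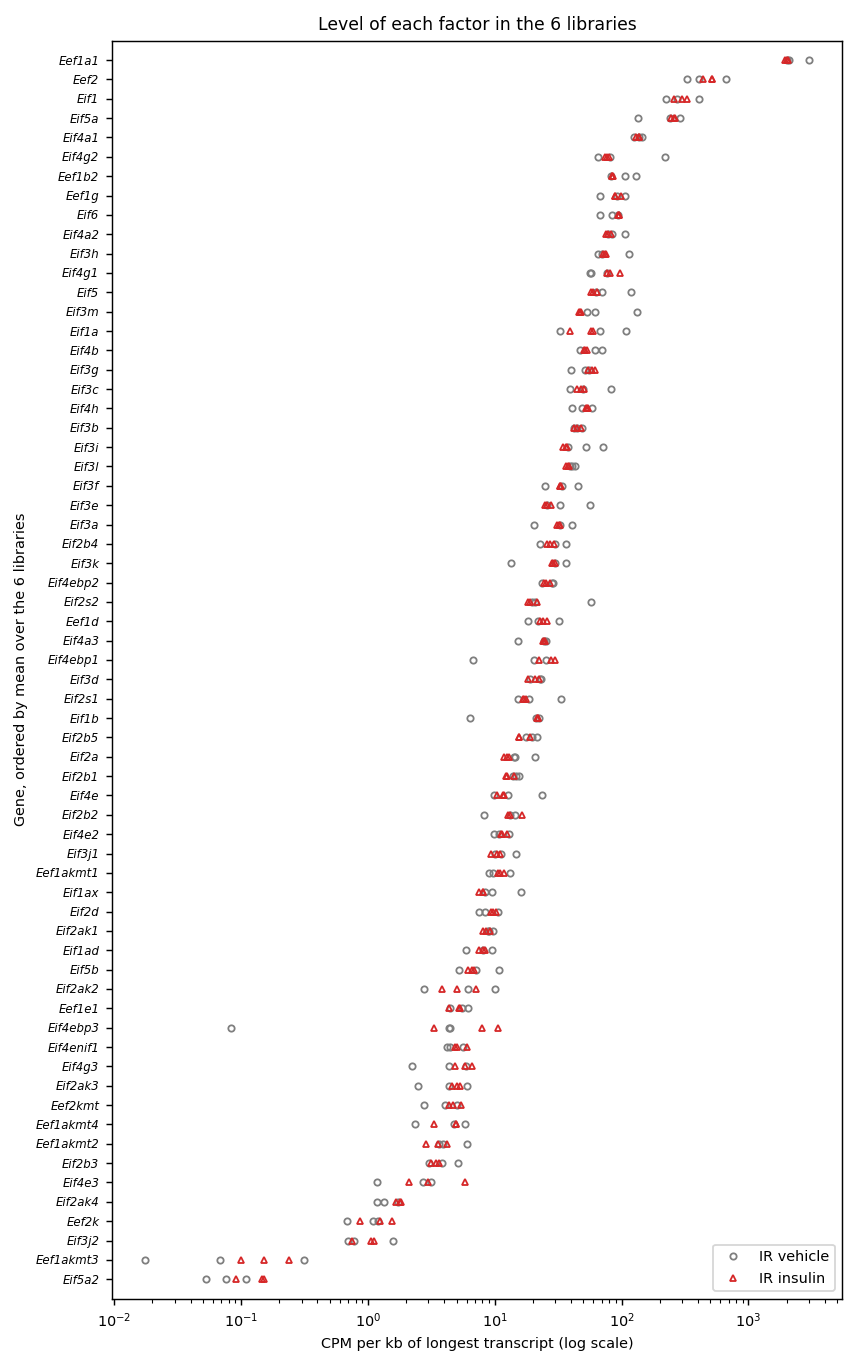
Level of each factor in CPM per kb of longest transcript on a log axis, 1 row per gene ordered by its mean, with circles for the 3 IR vehicle libraries and triangles for the 3 IR insulin libraries; members at or near 0 are not drawn. Eef1a1 lies highest, between 1944 and 3010 CPM per kb, and the single circle far to the left belongs to Eif4ebp3 in IR vehicle 2, at 0.0825 CPM per kb.

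Within families, 1 or 2 genes supplied most of the transcript. Among the eIF4E-binding proteins, which hold eIF4E away from eIF4G, Eif4ebp2 made up 51.4% of the summed CPM per kb on average, Eif4ebp1 39.8% and Eif4ebp3 8.8%. In IR vehicle 2 the shares were 80.6% for Eif4ebp2, 19.1% for Eif4ebp1 and 0.235% for Eif4ebp3. Of the cap-binding proteins, Eif4e averaged 46.9% and the related Eif4e2 42.5%, with 10.6% for Eif4e3. Their order was not fixed: Eif4e2 had the larger share in IR vehicle 3, IR insulin 1 and IR insulin 3. The scaffold Eif4g1 averaged 44.2% and Eif4g2, which lacks the eIF4E-binding part, 52.9%, against 2.89% for Eif4g3. In IR vehicle 2 the shares were 20.5% for Eif4g1 and 77.9% for Eif4g2. Eif4g2 had the larger share in all vehicle livers. In the insulin livers Eif4g1 had the larger share, at 49.0, 49.0 and 54.1%, against 47.2, 48.1 and 42.2% for Eif4g2. IR vehicle 1 was near these, at 46.9% for Eif4g1 and 49.5% for Eif4g2. Such orders between genes depend on the transcript lengths used, here 5638 bases for Eif4g1 and 7995 for Eif4g2. In CPM not divided by length, Eif4g2 lay above Eif4g1 in every library, as at 608 against 549 CPM in IR insulin 3. Among the kinases of eIF2α, Eif2ak1 (the heme-regulated HRI) averaged 43.4%, Eif2ak2 (PKR) 26.8%, Eif2ak3 (PERK) 22.1% and Eif2ak4 (GCN2) 7.7%.

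In edgeR's quasi-likelihood test, no translation factor met the criteria by which the study scored differentially expressed genes. These were a change of 0.35 or more on the log2 scale in either direction with p under 0.05. The study applied them with DESeq2, which here called 1 of 65 members, Eif3m (unadjusted p = 0.0396), against 2.38% of genes. With edgeR the count was 0 of 63 members, against 2.86% of all genes tested (383 of 13377, with 1.0% higher and 1.86% lower in insulin livers). Under the GC offset described below, 91 genes were higher and 384 lower, in place of 134 and 249. At an unadjusted p under 0.05 the members' count was also 0, against the same 2.86%. At an adjusted p under 0.05 it was 0 as well, as it was over all genes, with 0.0% called by edgeR and none by DESeq2. Adjusted p values of the members (edgeR, Benjamini-Hochberg over all genes) ran from 0.852 to 0.999, and each adjusted p below is from this fit unless another is named. In IR insulin, 28 members had higher and 35 lower estimates, with a median log2 fold change of −0.065, beside −0.017 over all genes, and −0.013 and 0.013 without IR vehicle 2. The 95% interval of the fold change lay within 2-fold in either direction for 43 of 63 members (68.3%) and for 39.3% of all genes. The remaining members have intervals that include changes of that size.

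**Figure D2:**
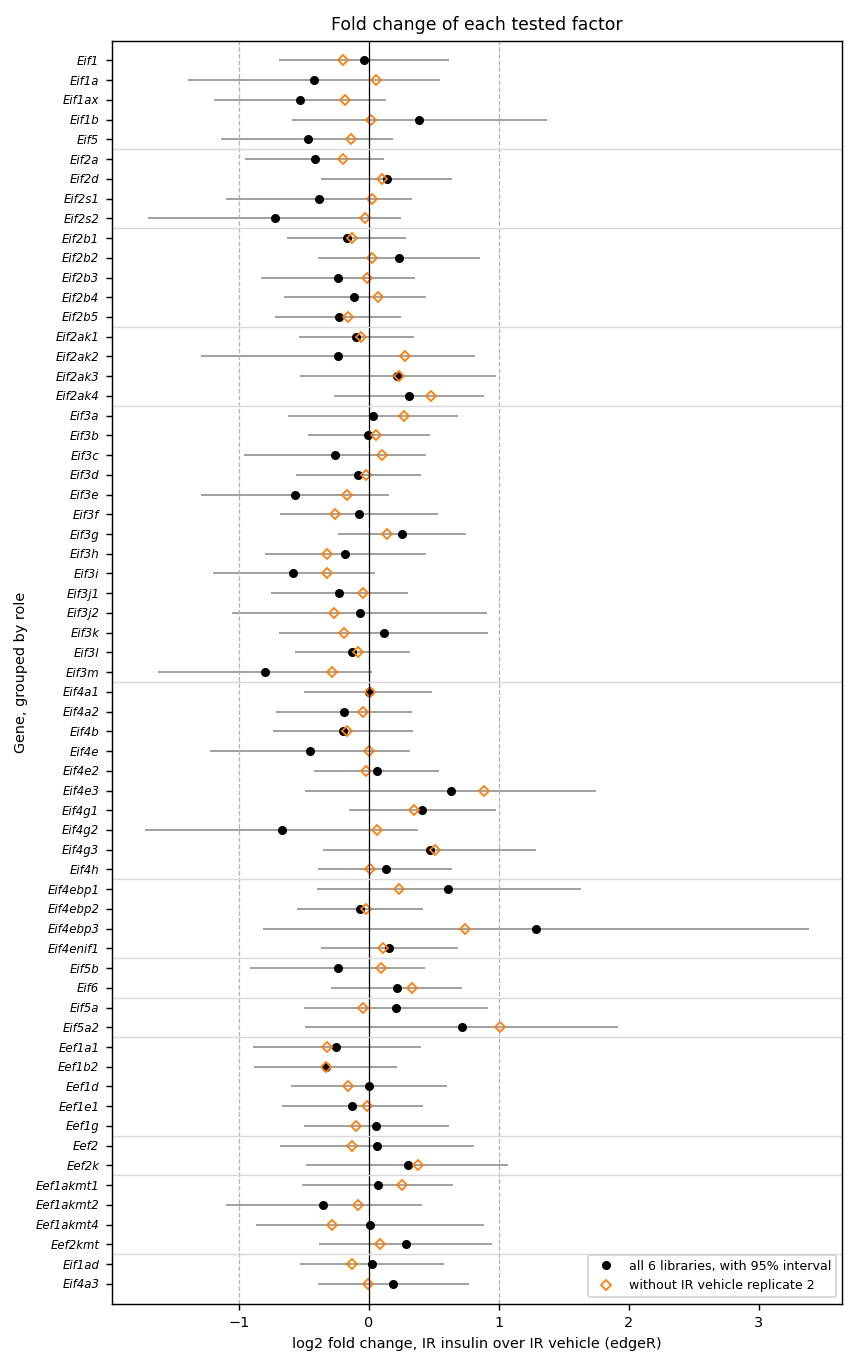
Log2 fold change of IR insulin over IR vehicle for the 63 tested factors, grouped by role, with dots and 95% intervals from edgeR on all 6 libraries and open diamonds for the estimate without IR vehicle 2. The dots run from −0.80 for Eif3m to 1.29 for Eif4ebp3, every interval crosses 0, and the diamonds of Eif3m, Eif2s2 and Eif4g2 sit closer to 0 than their dots.

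By the median over members, the 3 mice given insulin differed less from each other than the vehicle mice did. The SD of log2 CPM had a median over members of 0.09 among insulin livers and 0.42 among vehicle livers. Over all genes these medians were 0.18 and 0.52, without matching for level. Among insulin livers the SD reached 0.84 for Eif4ebp3 and 0.74 for Eif4e3. IR vehicle 2 was the highest of the 6 libraries for 28 members (44.4%, all genes 35.8%) and the lowest for 20 (31.7%, all genes 37.4%). IR vehicle 3 was the highest for 18 (28.6%, all genes 23.4%) and the lowest for 19 (30.2%, all genes 23.8%).

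**Figure D3:**
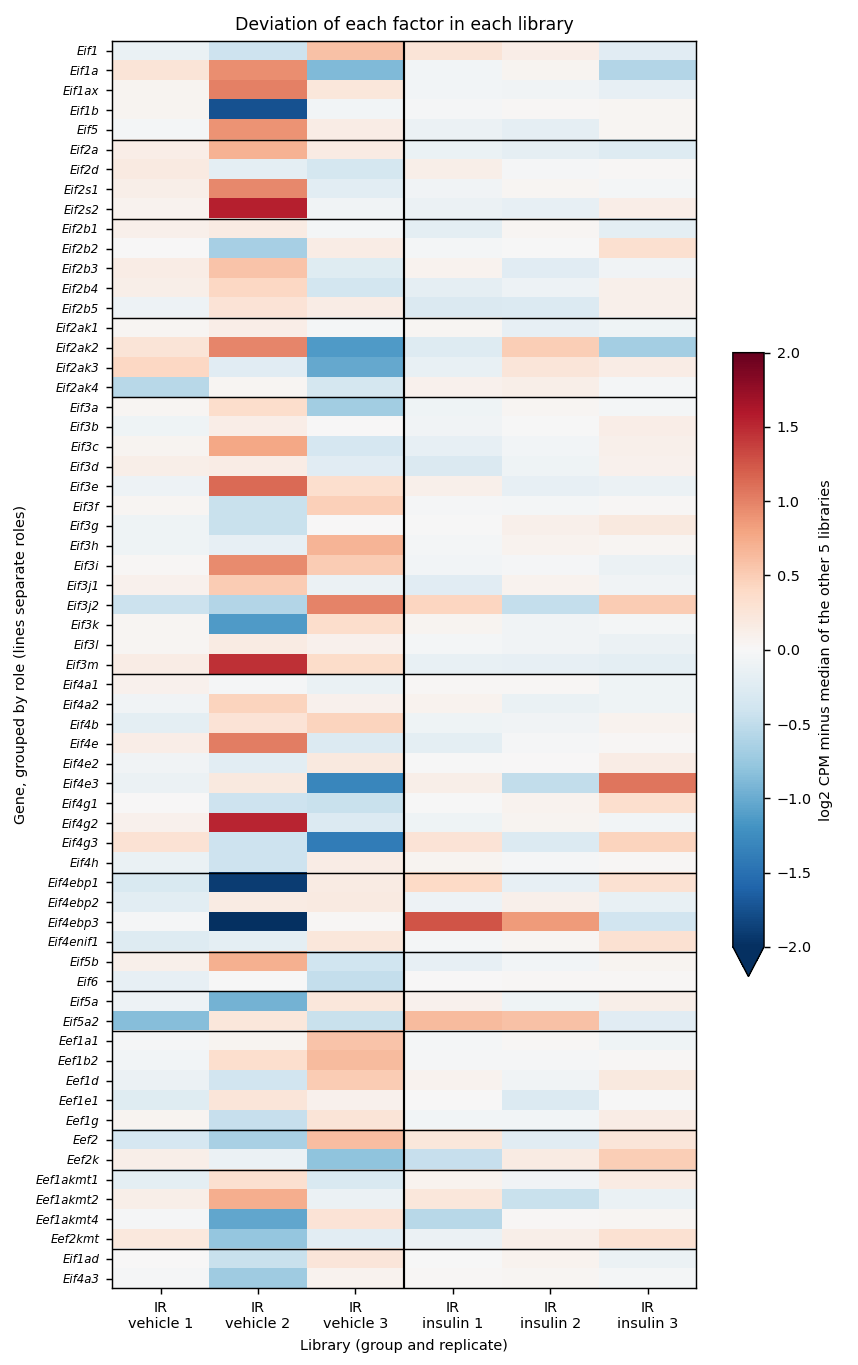
Deviation of each factor in each library, in log2 CPM less the median over the 5 remaining libraries, with genes in rows grouped by role and libraries in columns; red is higher, blue is lower, and Eif4ebp3 in IR vehicle 2, at −4.42, lies beyond the scale. The strong colours fall in the columns of IR vehicle 2 and IR vehicle 3, where median deviations of members were 0.14 and 0.028, while IR vehicle 1 and the insulin columns are mostly pale.

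Groups that do not overlap were seen for 6 of 63 members, against 12.3% of all genes. Eif6, which keeps the ribosomal subunits apart until they are ready to join, was the only member higher in all insulin livers (background 6.25%). Eif1ax, Eif2a, Eif3i, Eif3l and Eif3m were lower in all insulin livers (background 6.04%). As shares of the members tested, these were 1.59% and 7.94%. With the GC offset described below, only Eif3i and Eif3l of these genes stayed without overlap.

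Among the factors that scan for the start codon, 4 of 5 had lower estimates in insulin livers (median log2 fold change −0.42), and none passed the test. Without IR vehicle 2 the median was −0.14 with 3 of 5 lower, and without IR vehicle 3 it was −0.58 with 3 of 5 lower. Eif1ax, the X-linked form of eIF1A, measured 43.4, 83.9 and 49.3 CPM in IR vehicle 1, 2 and 3, and 42.0, 41.4 and 38.8 CPM in IR insulin 1, 2 and 3. Only IR vehicle 2 was far above the insulin mice, and the other vehicle mice were slightly above them. The log2 fold change was −0.53 ± 0.29 (SE, adjusted p = 0.852), and −0.18 without IR vehicle 2. Eif5, the GTPase activator of eIF2, was also highest in IR vehicle 2, at 256, 476 and 284 CPM in vehicle and 240, 231 and 261 CPM in insulin livers, but IR insulin 3 lay above IR vehicle 1, so the groups overlapped. The estimate for Eif5 was a log2 fold change of −0.47, and −0.14 without IR vehicle 2. Eif1 itself was at 359, 298 and 537 CPM in vehicle and 430, 397 and 341 CPM in insulin livers, so that here IR vehicle 3 was highest and the groups overlapped.

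The list for eIF2 and initiator tRNA delivery held the subunit genes Eif2s1 and Eif2s2 and the separate factors Eif2a and Eif2d. In it, 3 of 4 members had lower estimates, and Eif2d had a higher one (log2 fold change 0.14). The median log2 fold change of the list was −0.40, or −0.0038 without IR vehicle 2. Eif2s1, which encodes the α subunit that stress kinases phosphorylate, was at 63.5, 113 and 52.2 CPM in vehicle and 57.3, 60.2 and 58.3 CPM in insulin livers. The insulin values lay inside the vehicle range. Its log2 fold change was −0.38, with 0.023 without IR vehicle 2 and −0.59 without IR vehicle 3. Eif2a, a separate tRNA-binding factor, measured 48.5, 71.7 and 49.7 CPM in vehicle and 44.3, 42.9 and 40.6 CPM in insulin livers, all insulin mice being below all vehicle mice. The log2 fold change of Eif2a was −0.41 ± 0.23 (SE, adjusted p = 0.852), and −0.20 without IR vehicle 2. The gene overlaps 6720482G16Rik on its own strand and Serp1 on the other. Eif2b5, the catalytic subunit of the exchange factor eIF2B, was at 45, 54.8 and 49.8 CPM in vehicle and 39.4, 39.7 and 48.2 CPM in insulin livers. IR insulin 3 lay among the vehicle mice, and the log2 fold change was −0.23, or −0.50 with the GC offset. All 5 eIF2B subunits had 95% intervals within 2-fold.

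The 4 eIF2α kinases split, 2 with higher and 2 with lower estimates, or 3 higher without IR vehicle 2 and 1 higher without IR vehicle 3. Eif2ak4 (GCN2), the sensor of amino acid shortage, was at 6.19, 9.15 and 7.15 CPM in vehicle and 9.41, 9.65 and 8.86 CPM in insulin livers. IR vehicle 2 lay above the lowest insulin mouse, and the other vehicle mice lay below all of them. With all libraries the log2 fold change was 0.31 ± 0.25 (SE, adjusted p = 0.852). Without IR vehicle 2 it was 0.48 (adjusted p = 0.891, unadjusted p under 0.05), and this was the single member past the study's criteria in that fit, against 3.69% of all genes. Eif2ak2 (PKR) was at 26.3, 43.4 and 11.9 CPM in vehicle and 21.9, 30.8 and 16.4 CPM in insulin livers. Its estimate changed sign with the library left out, from −0.24 to 0.28 without IR vehicle 2 and −0.60 without IR vehicle 3. Eif2ak3 (PERK) was at 27.3, 19.5 and 11.2 CPM in vehicle and 20.6, 24.2 and 22.9 CPM in insulin livers, IR vehicle 3 being lowest, and its log2 fold change of 0.22 was −0.055 without that library. Eif2ak1 (HRI) was the steadiest kinase, at 38.2 to 41.7 CPM in vehicle and 35.2 to 39.4 CPM in insulin livers.

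The eIF3 complex held Eif3m and Eif3i, the members with the smallest p values. Of 14 tested subunit genes, 11 had lower and 3 higher estimates, with a median log2 fold change of −0.10 (−0.13 without IR vehicle 2, −0.15 without IR vehicle 3), and none passed the test. Eif3m was at 104, 258 and 121 CPM in vehicle and 93.3, 92.9 and 90.5 CPM in insulin livers, so that the groups did not overlap and IR vehicle 2 was more than 2-fold above every other mouse. The estimate was a log2 fold change of −0.80 ± 0.36 (SE, adjusted p = 0.852), −0.28 without IR vehicle 2 and −0.40 with the GC offset. Eif3i measured 87.2, 165 and 122 CPM in vehicle and 84.1, 85.8 and 80.5 CPM in insulin livers. Here IR vehicle 1 was barely above the insulin mice. Its log2 fold change was −0.58 ± 0.27 (SE, adjusted p = 0.852), −0.32 without IR vehicle 2 and −0.057 without both IR vehicle 2 and IR vehicle 3.

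Eif3e, another core subunit, was at 107, 234 and 135 CPM in vehicle and 114, 102 and 106 CPM in insulin livers. The groups overlapped at IR vehicle 1, and the log2 fold change was −0.57 ± 0.31 (SE, adjusted p = 0.852), or −0.17 without IR vehicle 2. Eif3a, the largest scaffold subunit, ran the other way in IR vehicle 3, at 168, 208 and 104 CPM in vehicle and 159, 168 and 163 CPM in insulin livers. Its log2 fold change was 0.031, with 0.27 without IR vehicle 2 and −0.20 without IR vehicle 3. Eif3f was at 85.0, 62.0 and 114 CPM in vehicle and 82.3, 82.1 and 83.9 CPM in insulin livers, with the insulin mice in the middle. Eif3l had non-overlapping groups at a small distance, with 91.8, 100 and 94.8 CPM in vehicle and 89.7, 87.9 and 85.2 CPM in insulin livers, and a log2 fold change of −0.13. The subunit genes of this complex therefore did not share 1 pattern across the vehicle mice.

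**Figure D4:**
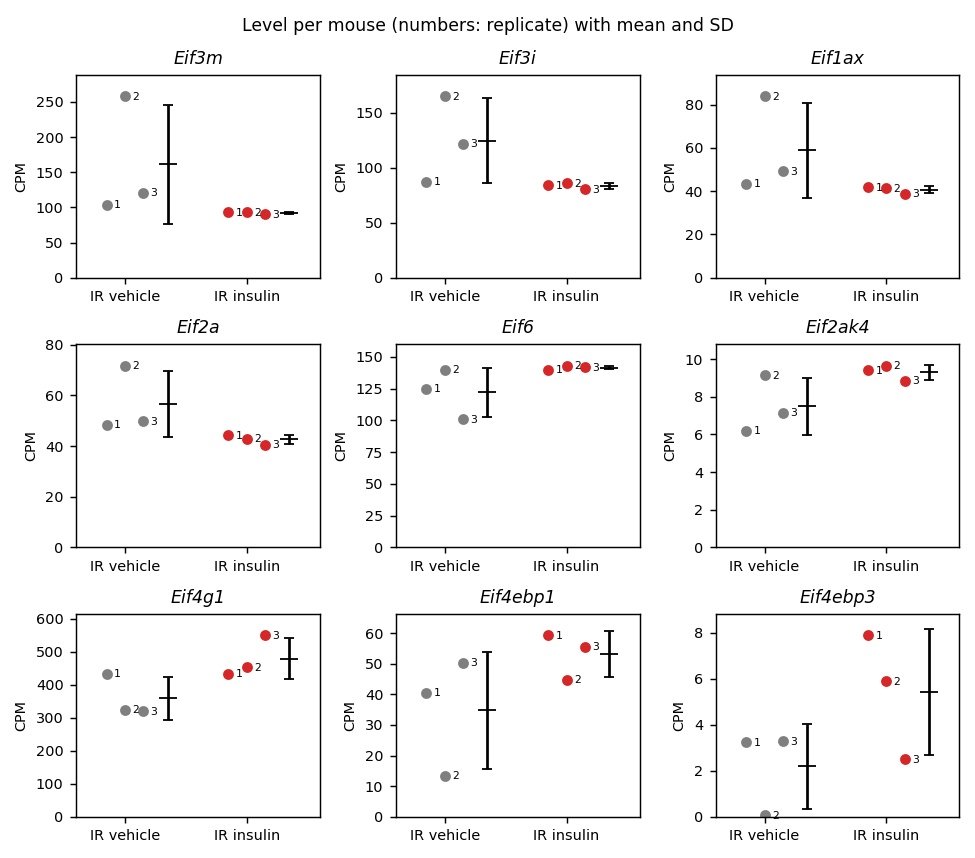
CPM per mouse for 9 factors, with grey points for IR vehicle, red points for IR insulin, numbers for the replicate, and a bar with whiskers for the mean and SD of each group (3 mice). For Eif3m the insulin points lie at 90.5 to 93.3 CPM and vehicle point 2 at 258 CPM; for Eif4ebp1 vehicle point 2 is the lowest, at 13.4 CPM.

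In the cap-binding group, 5 of 10 tested members had higher and 5 lower estimates (median log2 fold change 0.031, with 7 of 10 higher and a median of 0.0072 without IR vehicle 2). Eif4g1, the scaffold that joins cap, helicase and ribosome, was at 433, 324 and 319 CPM in vehicle and 433, 453 and 549 CPM in insulin livers. IR vehicle 1 was level with the lowest insulin mouse. Its log2 fold change was 0.41 ± 0.24 (SE, adjusted p = 0.852), or 0.12 with the GC offset. Its relative Eif4g3 was at 48.3, 35.6 and 18 CPM in vehicle and 47.7, 39.4 and 54.0 CPM in insulin livers, with IR vehicle 3 lowest and a log2 fold change of 0.47. That estimate was 0.16 without IR vehicle 3 and 0.81 without IR vehicle 1. Eif4e, the cap-binding protein, was at 63.4, 118 and 49.1 CPM in vehicle and 51.5, 58.0 and 59.2 CPM in insulin livers. The insulin values lay within the vehicle range, and the log2 fold change of −0.45 became 0.0029 without IR vehicle 2 and −0.69 without IR vehicle 3. Eif4a1 was the most even of these genes, at 459, 431 and 397 CPM in vehicle and 438, 437 and 412 CPM in insulin livers, with a log2 fold change of −0.00087 and a 95% interval from −0.50 to 0.49. Eif4a2, the other helicase, was at 213, 289 and 226 CPM in vehicle and 223, 204 and 210 CPM in insulin livers. Eif4b, the helicase cofactor, was at 180, 238 and 270 CPM in vehicle and 195, 198 and 207 CPM in insulin livers, and the groups overlapped for both genes.

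The eIF4E-binding proteins held the highest estimate of the set, that of Eif4ebp3, which overlaps AC115631.1 on its own strand. Eif4ebp3 was counted 61, 1 and 69 times in IR vehicle 1, 2 and 3 and 175, 136 and 54 times in IR insulin 1, 2 and 3. These counts correspond to 3.23, 0.0614 and 3.29 CPM in vehicle and 7.88, 5.89 and 2.49 CPM in insulin livers. IR insulin 3 lay below 2 of the vehicle mice, and IR vehicle 2 lay under the level of 3 counts. This gave a log2 fold change of 1.29 ± 0.91 (SE, adjusted p = 0.852), with a 95% interval from −0.81 to 3.39, and 0.74 without IR vehicle 2. Eif4ebp1 was at 40.5, 13.4 and 50.4 CPM in vehicle and 59.3, 44.8 and 55.6 CPM in insulin livers. IR vehicle 2 was far below, and IR vehicle 3 lay among the insulin mice. The log2 fold change was 0.61 ± 0.44 (SE, adjusted p = 0.852), with 0.23 without IR vehicle 2 and 0.98 without IR vehicle 3. Eif4ebp2 was at 136, 163 and 165 CPM in vehicle and 146, 157 and 141 CPM in insulin livers. Its log2 fold change was −0.065, or −0.02 without IR vehicle 2. Per kb it was the most abundant form on average, but Eif4ebp1 lay above it in IR insulin 1 and IR insulin 3.

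Eif6 was at 125, 140 and 101 CPM in vehicle and 140, 143 and 142 CPM in insulin livers. The groups were separate only by a margin that rounding to 3 digits removes. The log2 fold change was 0.22 ± 0.22 (SE, adjusted p = 0.853), with 0.096 without IR vehicle 3, 0.33 without IR vehicle 2 and −0.44 with the GC offset. Eif5a measured 348, 193 and 412 CPM in vehicle and 374, 352 and 379 CPM in insulin livers, with IR vehicle 2 lowest and IR vehicle 3 highest. Eif5a2, its rare paralogue, was at 0.264, 0.552 and 0.382 CPM in vehicle and 0.765, 0.736 and 0.461 CPM in insulin livers. IR insulin 3 lay below IR vehicle 2, and the log2 fold change was 0.72 ± 0.52 (SE, adjusted p = 0.852).

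IR vehicle 3 was highest for Eef1a1, Eef1b2, Eef1d, Eef1g and Eef2, while IR vehicle 2 was lowest for Eef1d, Eef1g and Eef2. Eef1a1 was at 3638, 3776 and 5401 CPM in vehicle and 3613, 3696 and 3488 CPM in insulin livers, with IR vehicle 3 above the other 5, which lay close together. The log2 fold change was −0.25 ± 0.28 (SE, adjusted p = 0.855), and −0.043 without IR vehicle 3. Eef1b2, an exchange factor of eEF1A, was at 160, 205 and 253 CPM in vehicle and 163, 163 and 166 CPM in insulin livers. Eef1d, another exchange factor, was at 62.6, 51.9 and 91.6 CPM in vehicle and 68.2, 64.7 and 74.0 CPM in insulin livers. The complex member Eef1g was at 172, 125 and 198 CPM in vehicle and 166, 165 and 184 CPM in insulin livers. IR vehicle 3 was the highest library for 4 of the 5 tested eEF1 genes, with a median deviation of 0.50, and all 5 had 95% intervals within 2-fold. Eef2 was at 1262, 1012 and 2062 CPM in vehicle and 1588, 1352 and 1595 CPM in insulin livers, and the insulin mice lay between the extremes of the vehicle mice. Its log2 fold change was 0.065, with −0.13 without IR vehicle 2, 0.41 without IR vehicle 3 and −0.33 with the GC offset. Eef2k, the kinase that inhibits eEF2, was at 7.88, 7.24 and 4.48 CPM in vehicle and 5.72, 8.14 and 10.2 CPM in insulin livers, so that IR vehicle 3 was the highest for Eef2 and the lowest for its kinase. The methyltransferases of the elongation factors had 3 higher and 1 lower estimates among 4 tested, with a median log2 fold change of 0.04, or 0.0033 without IR vehicle 2 and 0.12 without IR vehicle 3.

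The deviations of IR vehicle 2 followed the GC content of the transcripts in this set, as they did over all genes. Spearman's rho of deviation and GC content was −0.701 over the 63 members and −0.666 over all genes, as a description across genes of 1 library. The 19 members under 45% GC had a median deviation of 0.90 in IR vehicle 2, and 18 of them were above 0. Their median log2 fold change was −0.38, with 2 of 19 higher in insulin livers, and −0.031 without IR vehicle 2. The 17 members of 52% GC or more had a median deviation of −0.46 in IR vehicle 2, a median log2 fold change of 0.19 with 13 of 17 higher, and 0.014 without that library. In between, the median log2 fold change of 27 members was −0.00087. Over the members, rho of log2 fold change and GC content was 0.632 with all libraries and 0.216 without IR vehicle 2. Why the deviations in this library moved with GC content was not tested.

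**Figure D5:**
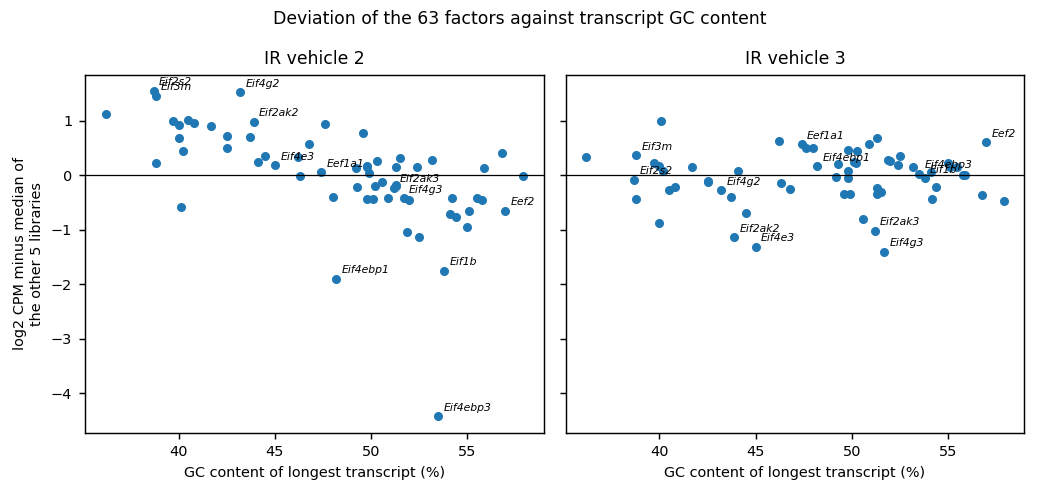
Deviation of the 63 factors (log2 CPM less the median over the 5 remaining libraries) against GC content of the longest transcript in percent, 1 point per gene, for IR vehicle 2 (left) and IR vehicle 3 (right). The left points fall from upper left to lower right (rho −0.701), whereas the right points show no slope (rho 0.0134), with Eef1a1 and Eef2 above 0 and Eif4g3 and Eif4e3 below −1.

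Some members met the study's criteria once a library or a setting was changed. Without IR vehicle 1, 4 members were called (Eif1ax, Eif3e, Eif3i and Eif3m, all lower with insulin), against 9.81% of all genes. Without IR vehicle 3, Eif1a, Eif2s2, Eif3m and Eif4g2 were called, also all lower, against 6.51%. Each of these 7 genes was highest in IR vehicle 2, which both fits kept. Eif2s2, the β subunit of eIF2, was at 84.7, 234 and 80.3 CPM in vehicle and 78.3, 75.4 and 87.9 CPM in insulin livers, and Eif4g2 at 648, 1745 and 521 CPM in vehicle and 592, 631 and 608 CPM in insulin livers. Eif3m was the 1 member called by DESeq2 (2.38% of genes) and without the filter on low counts (3.22%), and Eif3i the 1 called with the GC offset (3.55%), which removes each library's trend with GC content. Eif2ak4 was the 1 called by voom with sample weights (1.59%), with the GC offset without IR vehicle 2 (3.76%), and without both IR vehicle 2 and IR vehicle 3 (2.13%). The last 2 settings were chosen after seeing the data. The smallest adjusted p of any member over 17 alternatives was 0.506.

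The E-box CACGTG, the letters bound by MYC, USF and related factors, was searched in RefSeq promoter windows (GRCm38.p6, 250 bases before to 50 after each start), a scan chosen after the values were seen. The motif reads the same on both strands. It stood in a window of 13 of 51 members with an entry (25.5%), against 8.09% of 27025 genes. Those 27025 genes include genes that were not among the 13377 tested here. The share over tested genes was not computed, so the gap cannot be read as particular to these factors. The windows below show the motif in capitals in 3 members whose printed bases lie upstream of the gene as GENCODE draws it: Eef2 (chr10:81176561-81176620, plus strand), Eif4a1 (chr11:69672580-69672639, minus strand) and Eif3f (chr7:108934320-108934379, plus strand).
Eef2: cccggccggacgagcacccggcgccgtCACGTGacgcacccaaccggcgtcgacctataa
Eif4a1: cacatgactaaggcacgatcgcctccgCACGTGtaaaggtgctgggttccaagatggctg
Eif3f: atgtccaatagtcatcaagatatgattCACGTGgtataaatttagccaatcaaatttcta
The median log2 fold change was 0.12 for the 13 members with the motif (10 higher) and −0.13 for the 36 tested members without it (11 higher). Without IR vehicle 2 the medians were 0.0062 and −0.022. Median transcript GC content was 51.9% with the motif and 49.8% without. A match of letters is not evidence of binding.

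Other genes of translation control were read from a list of 48, of which 47 were found and tested. None passed the study's criteria, against 2.86% of all genes tested. Of these partner genes, 25 had higher and 22 lower estimates, and the median log2 fold change was 0.034, or −0.015 without IR vehicle 3. Groups without overlap were seen for 3 higher and 2 lower partner genes, against 6.25% and 6.04% of all genes. Rps6ka1, a kinase of the ribosomal S6 kinase family, was at 10.1, 7.24 and 10.6 CPM in vehicle and 12.7, 14.1 and 12.3 CPM in insulin livers, without overlap (log2 fold change 0.48 ± 0.24 SE, adjusted p = 0.852). With the GC offset it was 0.043. Tpt1, a growth-associated protein that binds elongation factors, was at 813, 1384 and 1277 CPM in vehicle and 805, 781 and 837 CPM in insulin livers, with overlap at IR vehicle 1. Its log2 fold change was −0.52 ± 0.28 (SE, adjusted p = 0.852). Etf1, the release factor that reads stop codons, stood at −0.64 ± 0.35 (log2 fold change and SE), and −0.15 without IR vehicle 2. Tsfm, a mitochondrial elongation factor, stood at 0.72 ± 0.42, and 0.36 without IR vehicle 2.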

How the data were processed

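Liver RNA of 6 mice (3 IR insulin, 3 IR vehicle, grouped by the sample labels, which give no batch) was sequenced. The deposited file holds whole-number read counts per Ensembl gene, without normalization or pooling. The authors' methods name the NEBNext Ultra RNA kit, an Illumina HiSeq and Bowtie 2 (2.2.3, per the submitters' processing notes) against mm10, build 38 of the mouse genome. How reads were counted, on which annotation and with what strand setting, is not given in the sources used here. An aligner without splicing can lose junction reads, which lowers genes of many short exons. Reads of overlapping genes cannot be divided with certainty: 25 members overlap a gene on the same strand and 22 on the opposite strand. Positions, lengths and GC content came from GENCODE release M21 (same build), in which 54495 of 54532 genes were found.

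The groups were compared with edgeR 4.0.16 in R 4.3.3 (glmQLFit and glmQLFTest, quasi-likelihood), with TMM, filterByExpr (minimum count 10, minimum total 15) and no covariate, adjusted by Benjamini-Hochberg over 13377 genes. The biological coefficient of variation was 0.357, so for genes with high counts, spread between libraries of a group rather than counting error limited the precision. That spread holds differences between mice and between library preparations together. Log2 CPM used a prior count of 2. The criteria were a log2 fold change of 0.35 or more in size and p under 0.05, as in the study, and adjusted p under 0.05. An exact permutation test of 3 against 3 cannot go below 0.1 and was not used. Alternatives were DESeq2 1.42.0 (the tool of the authors), voom (limma 3.58.1), RLE and upper-quartile factors, other filters (none, or 50 counts in 3 libraries), a GC offset (loess span 0.5), a replicate block, and leaving out libraries. Scripts were tested on simulated data.

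Members, lists, criteria and tests were chosen with earlier results of these data known. Named are 28 listed regulators and core factors, of which Eef1a2 was not tested, the 5 members with higher and the 5 with lower estimates of smallest p, and the 4 partner genes of smallest p. Other names (Eif2c5, Eif2d, Eif3j2, Eif3l, Eif4e1b, Eif4e2, Eif4e3, Eif4g2, Eif2s2, Eef1akmt3) were chosen after their values were seen. Marker lists covered 10 cell types.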

Additional observations from a re-analysis of the deposited data

How the results depend on the processing

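With 3 mice a group and no batch in the labels, differences between vehicle mice and between vehicle libraries cannot be told apart. The spread between libraries of a group left intervals wider than 2-fold for many members. No member passed an adjusted p under 0.05 under any of 17 alternatives. The unadjusted p under 0.05 was met by 0 to 4 members.

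The 0 members past the study's criteria became 1 with DESeq2, voom, no low-count filter, the GC offset, the GC offset without IR vehicle 2, and without both IR vehicle 2 and IR vehicle 3. Leaving out 1 library gave 0 to 4, with 4 without IR vehicle 1, 1 without IR vehicle 2 and 4 without IR vehicle 3. The count stayed at 0 with RLE and upper-quartile factors and the strict filter. The 0 partner genes became 1 with the GC offset (Tpt1), against 3.55% of all genes. With 1 library left out the count was 0 to 3. It was 3 without IR vehicle 1 (9.81% of all genes), 1 without IR vehicle 2 (3.69%) and 2 without IR vehicle 3 (6.51%). The 6 members without overlap became 10 with the GC offset without IR vehicle 2 (background 18.3%) and 39 without both IR vehicle 2 and IR vehicle 3 (background 47.8%), since fewer libraries overlap less often. Leaving out 1 library gave 9 to 26 (26 without IR vehicle 3, background 31.0%, and 21 without IR vehicle 1, background 30.5%). The members' median log2 fold change of −0.065 ranged from −0.09 to −0.012 with 1 library left out. For scale, the members' median log2 level had an SD of 0.0645 among libraries of the group where it was larger. That SD does not measure the spread of a fold change.

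With the replicate block, 0 members passed and the median was −0.0031, and −0.085 with the replicate block and GC offset. Correlations of deviations between same-numbered mice were −0.039, 0.0688 and 0.0174, and those of differently numbered mice ran from −0.11 to 0.0891. With 3 mice a group, such values cannot show whether same-numbered mice shared a batch. The labels give only the number, and the mice were treated as unpaired.

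Of 645 values of named genes under the alternatives, 566 kept their direction and side of the threshold, 17 passed it and 62 changed sign, each from an estimate that had not passed. Changed log2 fold changes with the GC offset were −0.041 (Eif5a), −0.094 (Eef1g), −0.33 (Eef2), −0.44 (Eif6), 0.0049 (Eif2ak2), 0.074 (Eif4a2) and 0.076 (Eif4a1). With the GC offset without IR vehicle 2 they were −0.10 (Eif5a), −0.15 (Eef1g), −0.19 (Eef1d), −0.20 (Eef2), 0.03 (Eif4e), 0.044 (Eif2s1), 0.10 (Eif1a) and 0.29 (Eif2ak2). Without both IR vehicle 2 and IR vehicle 3 they were −0.033 (Eif4g3), −0.035 (Eif3a), −0.27 (Eif2ak3), 0.0041 (Eif4a2), 0.011 (Eif3e), 0.044 (Eef1b2), 0.12 (Eif1), 0.13 (Eif4ebp2) and 0.16 (Eif4b). The block with GC offset gave −0.036 (Eif5a), −0.091 (Eef1g), −0.24 (Eif6), −0.30 (Eef2), 0.059 (Eif2ak2), 0.081 (Eif4a1) and 0.085 (Eif4a2). Voom gave −0.045 (Eef1g), 0.041 (Eif1), 0.057 (Eif4ebp2) and 0.092 (Eif2ak2). Eif4a1 was at 0.034 with no filter, 0.001 with the block, 0.0068 with the strict filter and 0.044 with upper-quartile factors. Eif1 was at 0.00071 with no filter, 0.0078 with the block and 0.0049 with upper-quartile factors, and Eef1d at −0.0085 with RLE factors. With 1 library left out, estimates ran from −0.69 to 0.0029 for Eif4e, −0.053 to 0.053 for Eif4a1, −0.59 to 0.023 for Eif2s1, −0.60 to 0.28 for Eif2ak2, −0.055 to 0.56 for Eif2ak3, −0.20 to 0.24 for Eif1 and −0.76 to 0.059 for Eif1a. They ran from −0.20 to 0.27 for Eif3a, −0.26 to 0.17 for Eif3f, −0.041 to 0.45 for Eif5a, −0.16 to 0.27 for Eef1d, −0.10 to 0.21 for Eef1g and −0.13 to 0.41 for Eef2. Apart from the fits that hold fewer libraries, the cause of these changes was not tested.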

Other observations

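Among the rows left out by name, Eif4a-ps4, a pseudogene of the cap helicase, had 1088, 839 and 1031 counts in IR vehicle 1, 2 and 3 and 1251, 1302 and 1197 counts in IR insulin 1, 2 and 3. These are 49.2 to 57.5 CPM in vehicle and 55.2 to 56.4 CPM in insulin livers, and how its reads and those of Eif4a1 were divided was not tested. The other 8 rows with pseudogene names had 0 to 14 counts in any library.

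Marker lists of other cell types differed between livers. Adipocyte markers summed to 0.191 CPM in IR vehicle 3 and to 25.0 to 154 CPM in the other 5 libraries. B cell markers summed to 40.3 CPM in IR vehicle 2 and to 2.86 to 10 CPM elsewhere, and erythroid markers to 1182 CPM in IR vehicle 2 and 292 to 589 CPM elsewhere. Neutrophil markers summed to 3.34 CPM in IR vehicle 3 and to 26.5 to 70.8 CPM elsewhere. Macrophage markers summed to 102 to 179 CPM and bile duct markers to 5.06 to 12.6 CPM. Pancreas acinar markers summed to 14.5 to 18.3 CPM, with 4 of 5 at 0 throughout. Neuron markers summed to 4.98 to 7.83 CPM, with 2 of 5 at 0 throughout. The part of these cell types in the members' values was not tested.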
